A study of Mus musculus with 2 samples.

Results

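C/D box small nucleolar RNAs (snoRNAs) were examined in 2 RNA-seq libraries of sorted mouse bone marrow cells. The members were chosen by their symbol and level: rows whose gene name begins with Snord, in either case, and that had at least 1 FPKM (a fragment count divided by RNA length and library size) in a library. This selected 55 of the 342 Snord rows, among 35798 rows of the table. A row is 1 locus, and the 55 rows carry 49 distinct symbols. The other 287 Snord rows were at 0 in both libraries and none lay between 0 and 1 FPKM, so the threshold separated rows with any value from rows with none. The lowest members just inside it were Snord17 (11.6 and 22.7 FPKM in control and JAK2 V617F) and SNORD94 (51.6 and 44.5 FPKM). Because presence in these libraries chose the members, their levels and differences are given as a description without a test.

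Nes-gfp littermates gave the control library, and in them green fluorescent protein is driven by nestin regulatory sequences. The JAK2 V617F library came from Nes-gfp;Mx1-cre;JAK2-V617F mice, in which Cre under the interferon-responsive Mx1 promoter induces a mutant kinase found in myeloproliferative neoplasms. All mice were adult C57BL/6 and received pIpC, a double-stranded RNA that induces interferon, and cells were taken 6 weeks later. CD45- CD31- Ter119- Nes-GFP+ stromal cells were sorted and pooled from 3 animals per library, so each genotype is 1 sample and no test between genotypes is possible. Per the labels the controls carry no Mx1-cre, so effects of Cre and of the mutant kinase cannot be told apart. The 9 stromal markers examined, which include Cxcl12 (891 and 694 FPKM) and Lepr (84.8 and 65.4 FPKM), were all within 2-fold, nestin itself (4.84 and 3.00 FPKM) among them. The 9 summed to 1188.7 FPKM in the control and 942.5 FPKM in JAK2 V617F.

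C/D box snoRNAs carry a box C near the 5′ end and a box D near the 3′ end. These boxes recruit the methyltransferase fibrillarin with NOP56, NOP58 and NHP2L1, and the sequence upstream of a box D pairs with ribosomal or spliceosomal RNA to place a 2′-O-methyl group. Most vertebrate members are trimmed out of the introns of host genes, many of which encode ribosomal proteins or translation factors. A few, such as U8 (Snord118), have genes of their own and act in ribosomal RNA processing rather than as methylation guides.

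The sequences below belong to members that the results turn on: U8, with the most estimated fragments; Snord100, with the highest JAK2 V617F value; Snord83b, Snord69 and Snord35a, which were higher there; an SNORD113 copy from the imprinted Meg3 domain; Snord104, equal in fragments; and Snord87, listed at 0 in JAK2 V617F. They are GENCODE vM21 transcripts (GRCm38), 5′ to 3′, with T for U. Capitals mark TGATGA (box C) within the first 25 bases and the last CTGA (box D) within the last 25 bases.
Snord118 (U8), chr11:69073427-69073561, plus strand: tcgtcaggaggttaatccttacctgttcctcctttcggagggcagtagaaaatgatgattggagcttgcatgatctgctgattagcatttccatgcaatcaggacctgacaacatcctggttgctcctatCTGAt
Snord100, chr10:23785750-23785823, minus strand: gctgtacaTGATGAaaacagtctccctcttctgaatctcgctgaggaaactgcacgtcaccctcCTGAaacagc
Snord83b, chr15:80078498-80078591, minus strand: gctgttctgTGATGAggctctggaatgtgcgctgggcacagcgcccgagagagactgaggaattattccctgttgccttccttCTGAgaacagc
Snord69, chr14:31014287-31014366, minus strand: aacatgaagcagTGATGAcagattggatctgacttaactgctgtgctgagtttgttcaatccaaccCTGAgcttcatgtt
Snord35a, chr7:45126346-45126435, minus strand: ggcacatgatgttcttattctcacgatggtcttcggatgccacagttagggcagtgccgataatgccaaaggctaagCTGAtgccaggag
SNORD113 (GENCODE gene Gm23736), chr12:109680800-109680874, plus strand: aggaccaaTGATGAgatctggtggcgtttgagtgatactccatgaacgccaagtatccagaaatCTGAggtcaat
Snord104, chr11:106500993-106501062, plus strand: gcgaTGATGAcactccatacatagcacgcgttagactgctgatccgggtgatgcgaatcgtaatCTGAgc
Snord87, chr1:9942463-9942549, minus strand: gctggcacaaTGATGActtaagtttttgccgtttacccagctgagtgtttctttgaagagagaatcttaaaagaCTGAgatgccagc
U8 and Snord35a have no TGATGA in that first window.

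A single GENCODE sequence could be assigned to 40 of the 55 rows. These RNAs were 68 to 238 nt long with a median of 81.5 nt. The box D letters CTGA were in the last 25 bases of 39 of the 40 (97.5%), and the box C letters TGATGA were in the first 25 bases of 25 (62.5%). Both were present in 24 of the 40. Among all 98 GENCODE genes named Snord, 70.4% held both, and among the 42 named Snora, the H/ACA class that guides pseudouridylation, none did. No sequence held both boxes on the opposite strand. The letters were searched exactly, so a sequence without them may carry a variant box.

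Between the libraries, 21 of the 55 rows (38.2%) were at least 2-fold higher in JAK2 V617F and 22 at least 2-fold lower, on the scale log2((JAK2 V617F FPKM + 1)/(control FPKM + 1)). Over the 15425 rows of all kinds with at least 1 FPKM in a library, 13.7% were that much higher and 11.3% that much lower. The members were chosen on these same 2 values, so nothing is read from how their shares stand to that background. Their median log2 ratio was -0.21 and that of all rows -0.03. Of the 55 rows, 15 were above 0 in the control library only, 16 in the JAK2 V617F library only and 24 (43.6%) in both. Over the 15425 rows of all kinds 91.3% were above 0 in both, and nothing is read from that difference either. Among the 24 seen in both, 5 were higher, 7 lower and 12 within 2-fold.

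**Figure D1:**
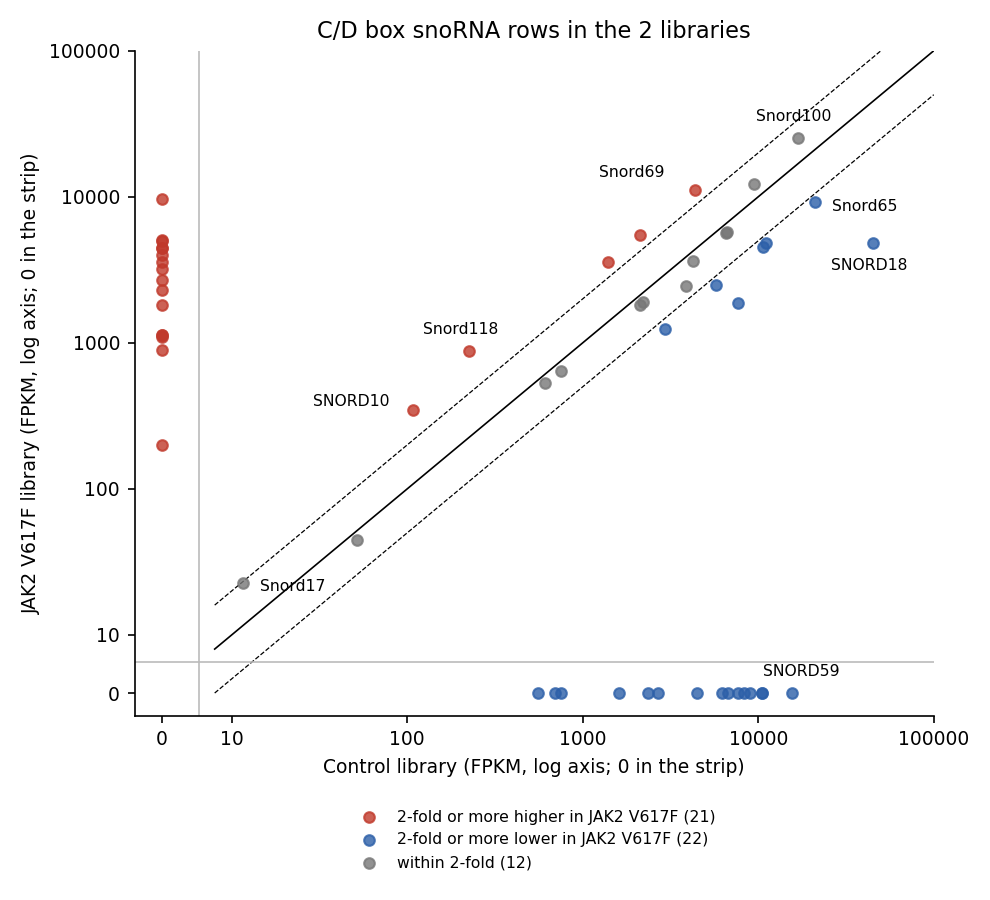
FPKM of the 55 C/D box snoRNA rows in the control (x) and JAK2 V617F (y) library on log axes, with values of 0 in the side strips; the solid line is equality and the dashed lines are 2-fold. The 31 rows in the strips (15 along the bottom, 16 along the left) were present in 1 library only, and 12 of the other 24 lie between the dashed lines.

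The highest values in the control library belonged to SNORD18 (45032 FPKM), Snord65 (21133), Snord100 (16801) and SNORD59 (15583). They were followed by Snord45b (11064), SNORD5 (10589), Snord19 (10568), SNORD58 (10539), Snord85 (9453), Snord53 (9029), SNORD63 (8303) and Snord73a (7634 FPKM). In the JAK2 V617F library the order was led by Snord100 (25312 FPKM), Snord85 (12247), Snord69 (11196), an SNORD113 row (9687) and Snord65 (9172). Next came Snord72 (5734), Snord104 (5653), Snord35a (5465), Snord4a (5082), Snord82 (4957), SNORD18 (4824) and Snord45b (4791 FPKM). Snord100, Snord65, Snord85, SNORD18 and Snord45b were thus among the 12 highest in both. SNORD59, Snord19, SNORD58, Snord53, SNORD63 and Snord73a were high in the control and listed at 0 in JAK2 V617F.

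The 55 rows summed to 253275 FPKM in the control and 161117 FPKM in JAK2 V617F, which is 27.4% and 19.7% of all FPKM in the table. SNORD18 alone made up 17.8% of the members' control sum. These large sums rest on few fragments. As background, Cufflinks divides by an effective length, which becomes very small for RNAs shorter than the sequenced fragments. The FPKM value of 1 fragment was estimated as a function of RNA length from 117 short RNA rows that are not members, an analysis chosen after the data were seen. A fragment was worth about 6111 and 5328 FPKM (control and JAK2 V617F) for an RNA of 70 nt, 1066 and 929.3 FPKM at 90 nt, 241 and 210.1 FPKM at 110 nt, and 53.51 and 46.65 FPKM at 135 nt. On this scale the members amounted to 92.0 to 97.8 fragments in the control and 109.3 to 113.4 in JAK2 V617F, the ranges coming from rows with several candidate lengths.

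The members fell on whole-fragment steps although they had not been used to place them. Of their 47 values with 1 assigned sequence below 3.5 estimated fragments, 44 (93.6%) came within 0.2 of a whole number, a band that would hold 40% of values spread evenly. The rule that assigned their sequences was narrowed after its first results were seen, so this is not a fully independent check. The whole numbers are estimates, since the annotated length may differ from the one the authors used. Snord11, for example, came to 0.79 and 2.36 fragments, which round to 1 and 2 although its 2 values stand near the ratio of 1 to 3 fragments.

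**Figure D2:**
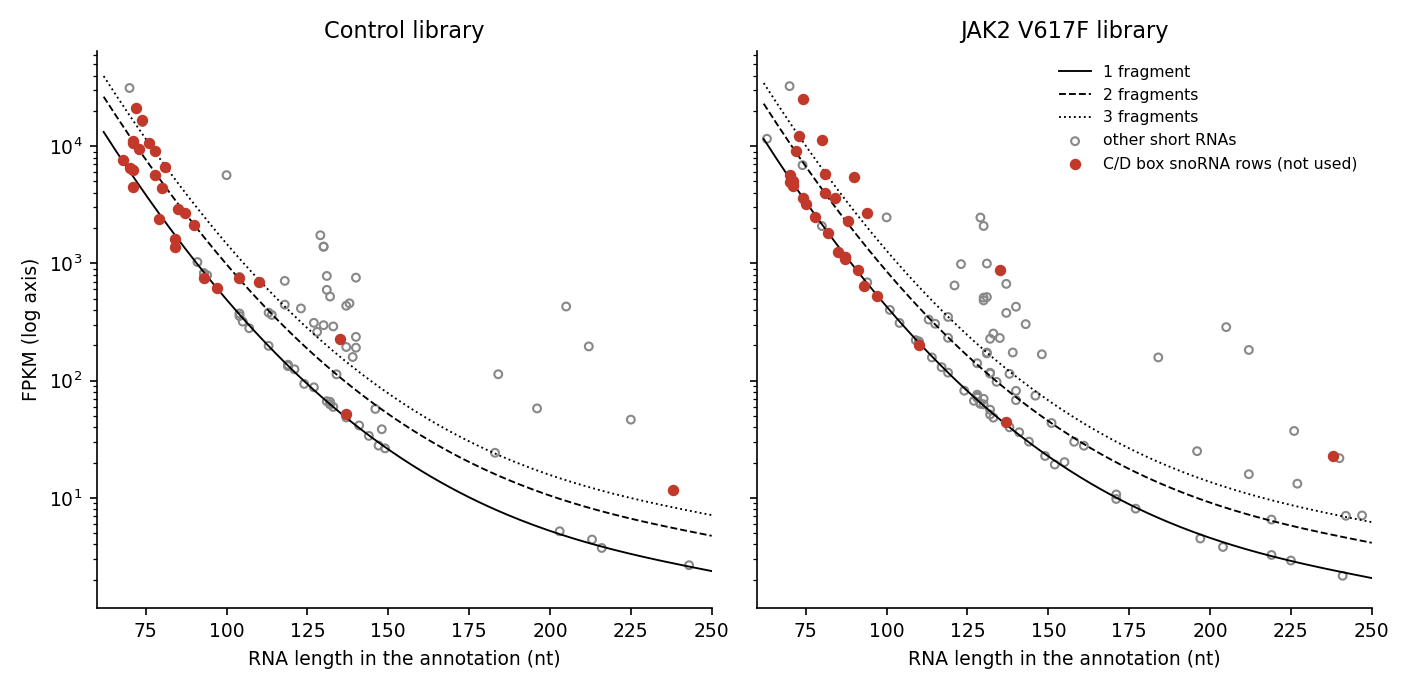
FPKM (log axis) against annotated RNA length in nt for the control (left) and JAK2 V617F (right) library; lines give the fitted value of 1, 2 and 3 fragments, open circles other short RNA rows, red points C/D box snoRNA rows with 1 assigned sequence. Most red points lie on or near the drawn steps, and those of more than 3 fragments lie above them. The step at 70 nt (6111 and 5328 FPKM) is over 100 times that at 135 nt (53.51 and 46.65 FPKM).

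Within each library the shorter members had the higher FPKM. Over the 27 rows with 1 assigned sequence above 0 in the control library, Spearman's rho between length and FPKM was -0.86, and between estimated fragments and FPKM 0.24. Over the 30 such rows in JAK2 V617F the values were -0.80 and 0.32. These are descriptions across genes of 1 library, and the fragment estimates themselves use the length. Rows of 75 nt or shorter had a median of 9453 FPKM in the control and rows of 91 nt or longer a median of 612 FPKM, yet both had a median of 2 fragments. SNORD18, the highest control row, corresponded to 6.10 to 8.09 fragments for its candidate lengths of 68 to 71 nt, and to 0.75 to 0.99 in JAK2 V617F. Snord17, the lowest row at 238 nt, had 4 and 9 fragments.

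A fragment number could be settled for 49 of the 55 rows, with 73 fragments in the control and 90 in JAK2 V617F. Scaled by the ratio of the fragment values in the 2 libraries (1.15), the JAK2 V617F total was 1.07 times the control total (95% exact Clopper-Pearson interval 0.781 to 1.48, counting error only). Of the 49 rows, 25 had at most 1 fragment in either library and 40 at most 3. Of the 39 called at 2-fold, 33 were among those with at most 3 fragments. All 20 rows with 1 fragment in total were called, as were 13 of the 18 with 2 or 3, 5 of the 7 with 4 to 9 and 1 of the 4 with 10 or more. A row with 1 fragment in total is always called, since it is at 0 in the other library.

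**Figure D3:**
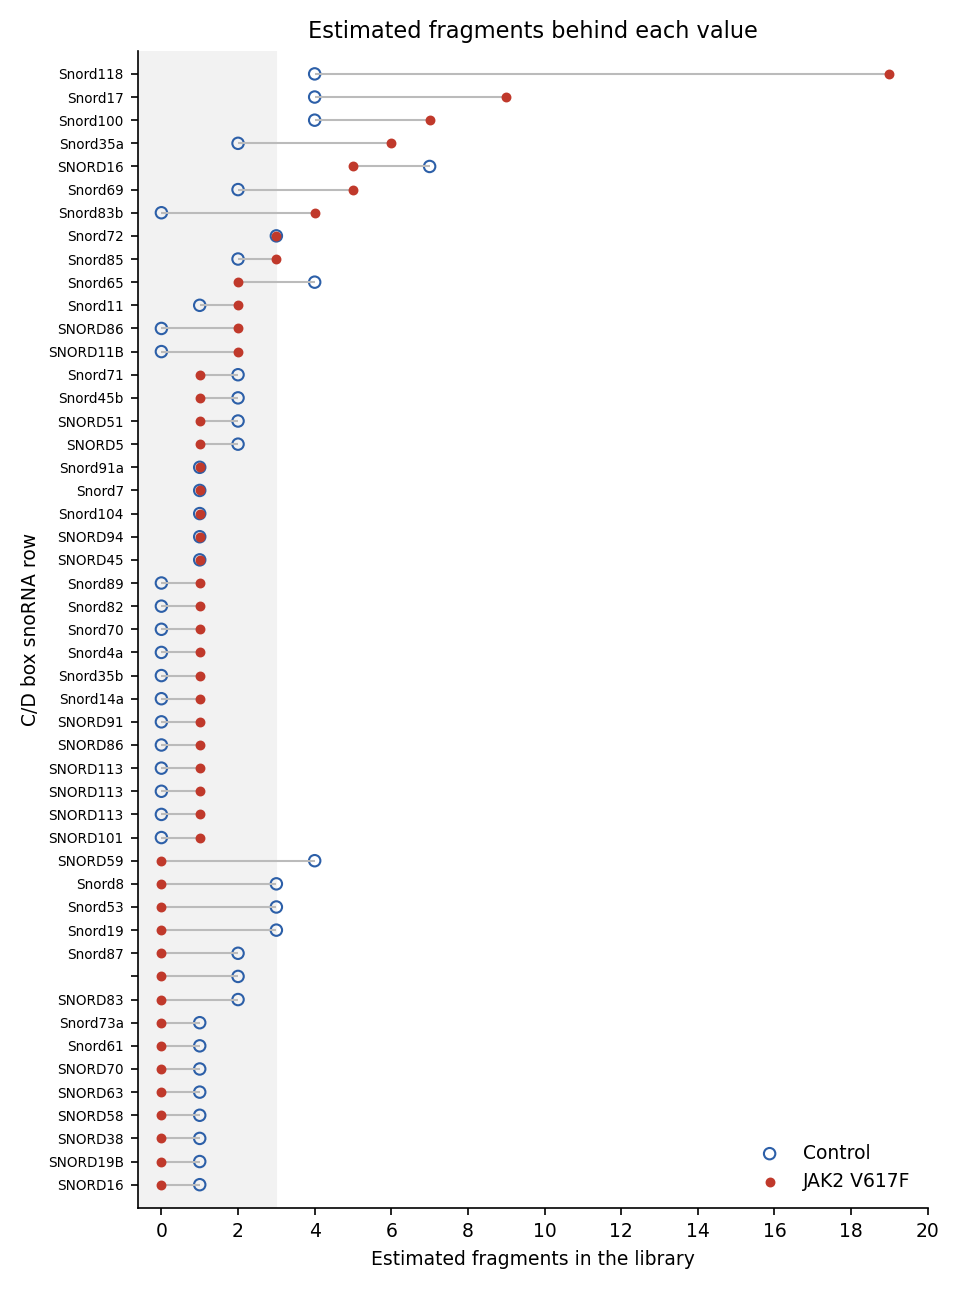
Estimated fragments in the control (open blue circles) and JAK2 V617F (red points) library for the 49 rows with a settled number, 1 row per line (1 row is unlabelled); the shaded area covers 0 to 3 fragments. Of the 49 rows, 40 lie wholly in the shaded area, and Snord118 at 4 and 19 fragments has the widest gap.

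Rows at 0 in 1 library can be read only to that depth. A count of 0 allows up to 3 fragments, which is 11560 FPKM in the control and 10080 FPKM in JAK2 V617F for an RNA of 75 nt, and 3198 and 2788 FPKM at 90 nt (counting error only). Of the 31 rows at 0 in 1 library, 29 had no more than 3 estimated fragments in the other, and 20 had 1. For those 29 a difference was not detectable at this depth. The other 2 were SNORD59, with 15583 FPKM (4 fragments) in the control and 0 in JAK2 V617F, and Snord83b, with 0 and 2691 FPKM (4 fragments), and their counting intervals also included 1.

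U8 (Snord118), which is required for maturation of the large-subunit ribosomal RNAs, had the most fragments. Its value was 226 FPKM in the control and 877 FPKM in JAK2 V617F, or 4 and 19 estimated fragments. The depth-scaled ratio was 4.14 with a counting interval of 1.38 to 16.7, and of the 49 such intervals it is the 1 that left out 1. Among the 6 rows without a settled number, SNORD18 left out 1 at its longest candidate length (8 and 1 fragments, interval 0.00246 to 0.813) but not at its shortest (6 and 1, 0.00316 to 1.2), and the other 5 included 1 at both ends. The U8 interval is not adjusted for the 49 rows read and covers neither amplification nor differences between animals. It comes from the same 2 values that chose the row and is no test between genotypes. Over the 117 short RNA rows that are not members such intervals left out 1 on the higher side in 3.42% and on the lower side in 4.27%. Those rows had more fragments each: 421 and 486 in all, with 83 of 117 at 3 or fewer in either library. The 49 had 73 and 90, with 40 at 3 or fewer. Rows with few fragments can hardly leave out 1, so the shares are no matched background. The 1 row of 49 is not read as above them. Without Snord118 the settled rows came to 69 and 71 fragments, a ratio of 0.897 (0.635 to 1.27). Rows named U8 that do not begin with Snord, 4 in all, had 2 rows above 0 in the control, with 122 FPKM together, and none in JAK2 V617F. Summed with them, a choice made after the data were seen, U8 stood at 348 and 877 FPKM, a ratio of 2.52 in place of 3.89 for Snord118 alone, and reads that could be placed on more than 1 copy make the U8 value uncertain.

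No row is named Snord3, the U3 snoRNA of early ribosomal RNA cleavage. Among 49 rows named U3, 2 were above 0 in the control and 3 in JAK2 V617F, with sums of 226 and 201 FPKM.

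The other members with more than 3 fragments in a library are listed here, and for all of them with a settled number the interval included 1. Snord100 was at 16801 and 25312 FPKM (4 and 7 fragments), while its host Rps12, a ribosomal protein gene, had a log2 ratio of 0.23. Snord17, from Snx5, was at 11.6 and 22.7 FPKM. Snord35a, from the Rpl13a locus, was at 2107 and 5465 FPKM (2 and 6 fragments). Snord69, from Gnl3, was at 4370 and 11196 FPKM (2 and 5 fragments). In these 4 the JAK2 V617F value was the higher of the 2. Snord65 went the other way, with 21133 and 9172 FPKM (4 and 2 fragments), and so did 1 SNORD16 row, with 3888 and 2442 FPKM (7 and 5 fragments). SNORD10, which lies in an Eif4a1 intron and has several candidate lengths, was at 108 and 345 FPKM, or about 3.02 to 3.17 and 11.06 to 11.60 fragments. SNORD12, also without a settled length, was at 7631 and 1876 FPKM, or 7.16 to 9.10 and 2.02 to 2.56 fragments.

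Among the rows present in both libraries, several log2 ratios were nearly the same because they are ratios of small whole numbers. The 6 settled rows with equal fragment numbers, Snord91a, Snord104, SNORD94, Snord72, SNORD45 and Snord7, had log2 ratios from -0.22 to -0.20, and the ratio for 1 fragment in each library is -0.20. Snord104, for instance, was at 6553 and 5653 FPKM (1 and 1 fragment). The 6 rows include the 5 with 1 fragment in each library and Snord72 with 3 and 3. Rows with 2 fragments in the control and 1 in JAK2 V617F, for which the log2 ratio is -1.20, were Snord71 (2933 and 1251 FPKM), SNORD5 (10589 and 4563), Snord45b (11064 and 4791) and SNORD51 (5721 and 2482 FPKM). SNORD88 (2107 and 1808 FPKM) and SNORD121A (4222 and 3638 FPKM), without a settled length, had log2 ratios of -0.22 and -0.21. The members' median of -0.21 is the value of such an equal pair.

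Rows seen in the control only also included Snord19 (10568 FPKM, 3 fragments), Snord53 (9029 FPKM, 3 fragments), Snord8 (695 FPKM, 3 fragments), SNORD83 (6733 FPKM, 2 fragments) and Snord87 (2684 FPKM, 2 fragments). SNORD58, SNORD63, Snord73a, SNORD38, Snord61, SNORD19B, SNORD70 and the second SNORD16 row stood on 1 fragment each, at 554 to 10539 FPKM. Rows seen in JAK2 V617F only, beside Snord83b and SNORD113, included SNORD11B (3987 FPKM) and 1 SNORD86 row (2299 FPKM), both on 2 fragments. Snord4a, Snord82, SNORD101, Snord70, Snord35b, Snord14a, SNORD91, Snord89 and the second SNORD86 row stood on 1 fragment each, at 199 to 5082 FPKM.

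The imprinted clusters differed in how often they were seen. Of the 19 rows named Snord113 or Snord114, in the Meg3 domain on chromosome 12, 4 SNORD113 rows were above 0 in JAK2 V617F (9687, 4474, 4467 and 3198 FPKM) and none in the control. Each rested on about 1 to 3 fragments, and near-identical copies can share reads. Meg3, the maternally expressed long RNA of the domain, was at 32.6 and 38.8 FPKM, a log2 ratio of 0.24. A row that joins the long RNA AC152063.2 with SNORD113 copies, and is no member, was at 6.27 and 15.5 FPKM (log2 ratio 1.18), and AC152063.3 was at 4.30 and 13.4 FPKM (1.44). The 137 Snord115 and 71 Snord116 rows, from the Prader-Willi domain that is chiefly active in neurons, were all at 0 in both libraries. Outside these 2 families, 55 of 134 Snord rows (41.0%) were members. Neuronal markers were low, with 6 of 8 at 0 in the control and 1 of 8 in JAK2 V617F. The 6 with at least 1 FPKM in a library summed to 1.2 and 16.7 FPKM. Of these 6, 5 were at least 2-fold higher in JAK2 V617F, among them Snap25 (0 and 6.63 FPKM). All 5 passed the filter only through JAK2 V617F, so nothing is read from how this count stands to the 13.7% of all rows. With a pseudocount of 5, or a filter at 5 FPKM, 1 neuronal marker was called higher. The part of neuronal RNA in the SNORD113 values was not tested.

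The host genes were mostly within 2-fold. For 44 member rows the table has a row of the host, 34 distinct hosts in all, with median levels of 163 and 186 FPKM. Of the 34, 33 were within 2-fold and 1 was higher. The SNORD113 members have no host row in this count, and the AC152063.2 and AC152063.3 rows given above, both more than 2-fold higher, are not in it. Of the 33 called members with a host row, 32 had a host within 2-fold. Nop58, which encodes a core protein of the same particles, was at 87.5 and 82.1 FPKM. Of the 4 members in its locus, SNORD11B, Snord11 and Snord70 were higher and SNORD70 lower. Gnl3, a nucleolar GTPase, was at 59.7 and 60.3 FPKM, while Snord69 was higher and Snord19 and SNORD19B lower. Rpl4 was at 1461 and 1524 FPKM, with SNORD18 and 1 SNORD16 row lower. For the members of these loci with a settled fragment number, all counting intervals included 1. The 1 host above 2-fold was Rabggtb, a subunit of the enzyme that prenylates Rab proteins, at 166 and 4006 FPKM (log2 ratio 4.58). Of the snoRNAs in its introns, Snord45b was at 11064 and 4791 FPKM (2 and 1 fragments, counting interval 0.00739 to 8.37). SNORD45 was at 2200 and 1908 FPKM (1 and 1 fragment, 0.0111 to 68.4). Whether these snoRNAs follow the host was not tested. Of the 55 rows, 6 have a locus of 300 bp or less that names 1 gene, and the others share a locus with a longer gene or with other rows. Reads of unspliced host RNA could be counted on a snoRNA there, and this was not tested.

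**Figure D4:**
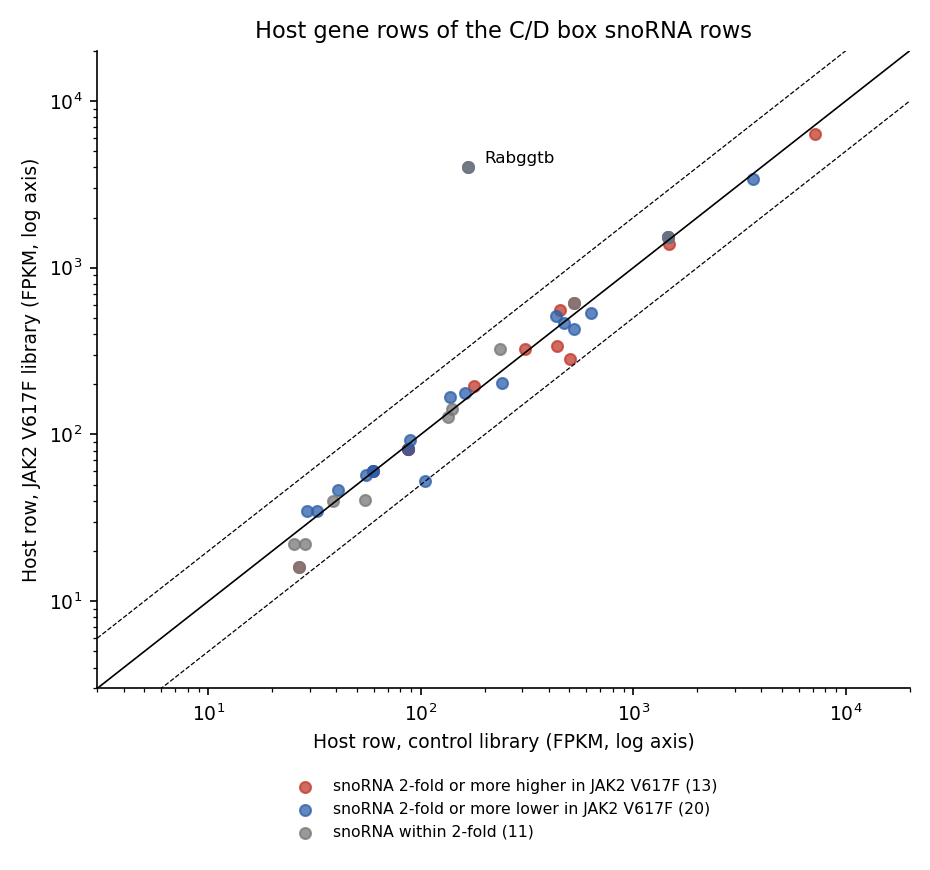
FPKM of the host gene row of 44 C/D box snoRNA rows in the control (x) and JAK2 V617F (y) library, on log axes, coloured by the call of the snoRNA; the solid line is equality and the dashed lines are 2-fold. All plotted hosts but Rabggtb (166 and 4006 FPKM) lie between the dashed lines, and the 3 colours are mixed among them.

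Proteins of the C/D particle differed little. None of the 4 core genes passed 2-fold: Fbl (fibrillarin) was at 41.3 and 49.4 FPKM, Nop56 at 429 and 271, Nop58 at 87.5 and 82.1, and Nhp2l1 at 27.1 and 23.3 FPKM. None of 9 assembly factors did, with Rpap3 of the R2TP complex at 5.97 and 11.1 FPKM having the widest difference. In the list of 18 processing and decay factors, Dbr1, which debranches the intron lariats that release snoRNAs, was higher (12.9 and 41.3 FPKM) and Exosc9, an exosome subunit, lower (30.8 and 11.6 FPKM). None of 15 U3 particle and nucleolar protein genes passed 2-fold, with Rrp9 widest at 17.8 and 9.45 FPKM, nor did any of 6 H/ACA particle genes. Of 30 listed snoRNA host genes with a row of their own, Rabggtb and Snhg9 (10.2 and 35.8 FPKM) were higher and none lower. Gas5, whose row also names several snoRNAs and is no member, was at 1279 and 1186 FPKM. Over these lists the share called was at or below that of all rows.

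Other classes of small RNA were also called often. Of 1009 H/ACA rows (Snora), 158 were kept, and of these 68 were higher and 47 lower (72.8% called, against 78.2% of the C/D rows). Of 23 small Cajal body RNA rows 6 were higher and 7 lower, and of 130 spliceosomal U RNA rows 71 were higher and 46 lower. Rows that are not small RNAs were called in 23.2%. The share of rows above 0 in both libraries was 43.6% for C/D rows, 42.4% for H/ACA rows, 60.9% for small Cajal body RNA rows, 16.2% for spliceosomal U rows and 93.2% for rows that are not small RNAs. These differences between classes were not tested.

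Steps in the values of longer genes put the depth near 5330000 fragments for the control and 6220000 for JAK2 V617F. These are rough estimates: 57.0% of 256 low control values and 58.7% of 482 low JAK2 V617F values lay within 0.1 of a whole step. The step and offset were picked to make that share large. Erythroid markers summed to 2272 and 1104 FPKM (2 of 8 lower) and leukocyte markers to 307 and 424 FPKM (2 of 7 higher), while endothelial markers summed to 28.3 and 33.7 FPKM (1 of 6 higher), beside 13.7% higher and 11.3% lower over all rows. These counts moved with the settings: with a pseudocount of 5 no leukocyte or endothelial marker was called higher, 2 endothelial markers were under the 3 rescalings and with a pseudocount of 0.1, and 1 erythroid marker was called lower when both libraries had the same sum over all rows. Emcn, the endothelial marker called higher (0.20 and 5.15 FPKM), passed the filter only through JAK2 V617F, so its call is not read against the share of all rows. In bulk samples fewer cells of a type and less RNA per cell cannot be told apart. The part of erythroid, leukocyte and endothelial cells in the snoRNA values was not tested.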

How the data were processed

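Total RNA of each cell pool (2 to 3 ng) was amplified with the Ovation RNA-Seq System v2, sonicated to about 300 bp and sequenced on a Genome Analyzer IIx, per the labels' protocols. Amplification and fragment length both bear on RNAs of snoRNA size, and no molecular identifiers are mentioned. The tools that the submitters' processing notes name are Bowtie2 2.0.6, TopHat2 2.0.7, Cufflinks and cutadapt 1.2.1, with the mouse build GRCm38. The deposited table gives 1 FPKM value per row and library, computed by the authors. No source used here gives the annotation release, how strand and reads with several placements were handled, or any effective-length setting.

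From the deposited FPKM values, log2((JAK2 V617F + 1)/(control + 1)) was computed, rows with at least 1 FPKM in a library were kept, and 2-fold was the call. No p-value is given, since each group is 1 library. The members, gene lists and alternatives were chosen with earlier results of these data known. Named rows were the 12 highest in each library, the 12 largest increases and decreases, every row above 0 in both, the imprinted families, U3 and U8. Of the gene lists some members are named, and these are not always the ones with the largest change.

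Fragment numbers were an alternative added after the data were seen. Rows of 260 nt or less that are no member were taken. Their length was the width of the locus for a row alone at its locus, and the GENCODE vM21 length otherwise. Log FPKM of 1 fragment was fitted as a polynomial of degree 4 in length with a shift between libraries (1.15). A model of fragment lengths and a polynomial started by hand were tried first and dropped, and the rule that gives a row its candidate sequences was narrowed after its first results were seen. Of the 100 fitted values below 3.5 fragments, 95.0% lay within 0.2 of a whole number, a share the fit was chosen for. Simulated data were checked. A member row is counted in the totals but not reported here by name. Sequences were assigned by symbol, by a locus with 1 candidate or by identity of at least 75% (Biopython 1.88), and 15 rows kept several candidates. Library depth used an offset picked from several for its sharp steps. Ratio intervals are exact Clopper-Pearson at 95%. Python 3.11.15, pandas 2.3.3 and scipy 1.17.1 were used.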

Additional observations from a re-analysis of the deposited data

How the results depend on the processing

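Counts and medians of the 55 rows changed little with the pseudocount (0.1 or 5), no filter, a filter at 5 FPKM or 3 rescalings of the libraries: 21 or 22 rows were higher, 22 were lower, and the median log2 ratio ran from -0.21 to -0.04. The filters could not change these rows, since every Snord value above 0 was at least 11.58 FPKM. Rows at 0 in 1 library keep their call under either pseudocount, so these settings lend the calls no support. The rescaling to the same sum over all rows moved the median of all rows by 0.17 on the log2 scale. The log2 ratio of the members' summed FPKM was -0.65 (counting interval -1.21 to -0.10) and -0.58 to -0.48 under the rescalings. There the interval included 0 for both same-sum rescalings (up to 0.08 and 0.01) and not for the same median (up to -0.03). It is a normal approximation in which rows at 0 add no counting error, so it is too narrow. Whether it leaves out 0 is therefore not read as a result. The fragments of the 49 settled rows came to 73 and 90, a depth-scaled ratio of 1.07 (0.781 to 1.48), or 0.897 without Snord118. The settled rows leave out SNORD18, which made up 17.8% of the members' control sum, and SNORD12. Over all 55 rows the estimate was 92.0 to 97.8 fragments in the control and 109.3 to 113.4 in JAK2 V617F, before scaling by 1.15. The 2 measures thus differ over the same rows as well, and a fragment of a shorter RNA adds more to the FPKM sum. No direction of the members as a whole is read from either. Summing rows of 1 symbol gave 16 higher and 20 lower of 49. Restricting to the 24 rows above 0 in both libraries gave 5 higher and 7 lower, which follows from dropping rows at 0. Restricting to the 6 rows with a locus of 300 bp or less gave 2 higher and 3 lower, from fewer rows. Calling a row by its interval of estimated fragments, an alternative chosen after seeing the data, gave 1 higher and 0 lower of 49, since that call takes counting error into account. Of 154 counts over the gene lists under these settings, 143 stayed within 1.5 times and 11 moved, all of them counts of leukocyte, erythroid, endothelial or neuronal markers. No replicate could be left out and no paired analysis was possible because each group is 1 library. At about 92 to 113 fragments over all members, the depth leaves most single-row differences within counting error. The 1 interval of 49 that left out 1 is unadjusted. It is not read as above the 3.42% and 4.27% of other short RNA rows, which had more fragments each and are no matched background.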
